A study of Mus musculus with 12 samples.

Results

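Cultures of mouse PYMT cells given the ligand TGFB2 were compared with untreated cultures (NT), 3 libraries against 3, across all expressed genes. These 6 libraries were chosen by their labels out of the 12 in the series. PYMT is a cell line named for the mouse mammary tumour model driven by the polyoma virus middle T antigen. TGFB2 cultures were given 5 ng/mL of the ligand for 3 days, and RNA was taken 2 days after the medium had been replaced, once the matrigel around the cells was dissolved. NT cultures received no ligand. A further 3 libraries from cultures given both ligands (BMP4-TGFB2) and 3 from cultures given BMP4 alone, each at 5 ng/mL on the same schedule, are used where the effect of TGFB2 is set beside its effect on BMP4-treated cells. All groups share the single cell line. Replicates are labelled biological without a word on how the cultures were separated, and the p-values below measure no more than their spread.

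TGFB2 is a secreted ligand that is released from a latent complex and binds a pair of serine/threonine kinase receptors, with betaglycan as a helper. The receptors phosphorylate SMAD2 and SMAD3, which enter the nucleus with SMAD4 and act there beside other factors such as AP-1. In mammary epithelium these ligands are known to restrain growth and milk secretion, and in carcinoma cells to promote a mesenchymal state. The direct SMAD feedback genes, milk proteins and interferon-stimulated genes are left aside here, and the account is of transport, transcription factors, secreted factors, receptors and metabolism.

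Totals ran from 30387772 to 42167651 counts over the 6 libraries. Transcripts encoded by mitochondria took 2.95%, 2.46% and 1.84% of counts in TGFB2 libraries, against 1.95%, 1.14% and 1.15% in NT libraries. The summed level of 30 cell cycle genes was 1189, 4449 and 4154 CPM (counts of a gene scaled to its library's total) in TGFB2 libraries, against 3876, 5797 and 6039.5 CPM in NT libraries. TGFB2 replicate 1 stood apart as the lowest of these. Of those 30 genes 10 fell and 0 rose by edgeR (rises: 0 at an unadjusted p under 0.05 and 0 by DESeq2), and without replicates 1, 2 and 3 in turn 19, 10 and 4 fell. Falls numbered 23 at an unadjusted p under 0.05, 22 by DESeq2 and 0 by edgeR with no replicate block. Of 11 mammary epithelial markers, among them Epcam, Krt8, Krt18 and Cdh1, 0 passed the edgeR test (rises: 1 at an unadjusted p under 0.05 and 1 by DESeq2; falls: 2 at an unadjusted p under 0.05 and 2 by DESeq2), and without replicates 1, 2 and 3 in turn 0, 0 and 1 rose and 2, 0 and 0 fell. Their summed level was 6382 to 6847 CPM with TGFB2 and 5362 to 6614 CPM in NT. Leukocyte markers summed to 98.8 to 172 CPM with TGFB2 and 361 to 485 CPM in NT, nearly all of it Cd14, which epithelial cells can also make, and Ptprc, their defining marker, stayed under 1 CPM in all 6. Endothelial markers summed to 6.5 to 11.1 CPM with TGFB2 and 5.17 to 8.56 CPM in NT, and adipocyte markers to 6.83 to 8.88 and 5.86 to 8.5 CPM. Fibroblast markers summed to 156 to 298 CPM with TGFB2 and 12.2 to 29.6 CPM in NT, and Lox, an enzyme that crosslinks collagen, made up most of the sum with TGFB2. Of 11 tested fibroblast markers 7 rose (without replicates 1, 2 and 3 in turn 6, 4 and 4). In bulk libraries a change in the share of a kind of cell and a change in RNA per cell cannot be told apart, and the part of these differences in the results below was not tested.

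With TGFB2, 2021 of 14367 tested genes rose, which is 14.1%, and 1838 fell, which is 12.8% (26.9% together; edgeR quasi-likelihood test with the replicate number as a block, Benjamini-Hochberg adjusted p under 0.05). Of these, 1090 rose and 899 fell by at least 1 log2 unit, that is 2-fold. The median log2 fold change of all tested genes was 0.02. Among the genes that passed, every TGFB2 library lay above every NT library for 1758 that rose and below for 1632 that fell. Most genes that passed thus had separate groups, and the genes named below were chosen by size or small p in these same libraries. Groups without overlap in a named gene are therefore a description and no further support. Leaving out both libraries of replicate 1, 2 or 3 gave 2354, 1066 and 950 genes that rose and 2497, 1132 and 926 that fell. In what follows "rose" and "fell" are used only of genes that passed this test, a log2 fold change is followed by ± its SE, a value in brackets after a gene or after "by" is its log2 fold change, and each adjusted p is from this edgeR test. For a list, the shares to set it against are these 14.1% and 12.8%. Where leaving out both libraries of a replicate number moved a list's count by over 1.5 times, the counts without replicates 1, 2 and 3 are given in that order after "in turn".

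The 12 leading rises were ranked among genes with a mean log2 CPM not under 2 and separate groups, without a list of SMAD, matrix, milk, interferon and other genes known from earlier results of these data. They are thus not the largest of all, since the adhesion receptor Adgra1 (7.61) on that list rose by more than any of them. Acsbg1, an acyl-CoA synthetase that activates long-chain fatty acids (ENSMUSG00000032281.11, chromosome 9, 54604877 to 54661870), had 131, 90.4 and 179 CPM in TGFB2 libraries, against 1.78, 2.33 and 5.93 CPM in NT libraries (log2 fold change 5.43 ± 0.30, adjusted p = 0.000437). Adam12, a membrane-bound metalloprotease (ENSMUSG00000054555.11, chromosome 7, 133883199 to 134232146), had 119, 151 and 214 CPM in TGFB2 libraries, against 3.01, 3.22 and 10.3 CPM in NT libraries (log2 fold change 5.06 ± 0.27, adjusted p = 0.000432). Sdc3, a syndecan that carries heparan sulfate (ENSMUSG00000025743.14, chromosome 4, 130792537 to 130826319), had 154, 239 and 326 CPM in TGFB2 libraries, against 8.87, 5.91 and 12 CPM in NT libraries (log2 fold change 4.74 ± 0.25, adjusted p = 0.000425). In these 3 genes every TGFB2 library was more than 10 times above every NT library. Scara3, a scavenger receptor family member linked to oxidative stress, had 40.7, 65.4 and 124 CPM in TGFB2 libraries, against 1.81, 1.71 and 3.53 CPM in NT libraries (log2 fold change 4.97 ± 0.19, adjusted p = 0.000306). Piezo2, a cation channel opened by mechanical force, had 26.1, 31.3 and 63.6 CPM in TGFB2 libraries, against 0.959, 0.560 and 1.38 CPM in NT libraries (log2 fold change 5.35 ± 0.24, adjusted p = 0.000339). Rasa4, a GTPase-activating protein that turns off RAS in response to calcium, had 27.5, 35.2 and 30.8 CPM in TGFB2 libraries, against 0.586, 0.589 and 2.07 CPM in NT libraries (log2 fold change 5.02 ± 0.44, adjusted p = 0.00145). In 5 of these 6 genes (all but Rasa4) TGFB2 replicate 3 was the highest. Gpm6b, a proteolipid family membrane protein, rose by 5.44. A further 5 of the 12 share exons with a neighbour at over 10% of their own CPM, so that their reads are not separated with certainty: the cathepsin Ctsw (6.95), the growth factor Fgf2 (4.79), the scavenger receptor Stab1 (4.74), the phosphodiesterase Pde2a (4.72) and the glycosyltransferase-like Galnt2l (5.39). Galnt2l was the least secure of them, at 16.8, 19.4 and 30.6 CPM in TGFB2 libraries, against 0, 0 and 5.06 CPM in NT libraries (adjusted p = 0.0336), and its adjusted p over the alternatives ran from 0.000609 to 0.162, with the call lost without replicate 2 (0.0512) among others.

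**Figure D1:**
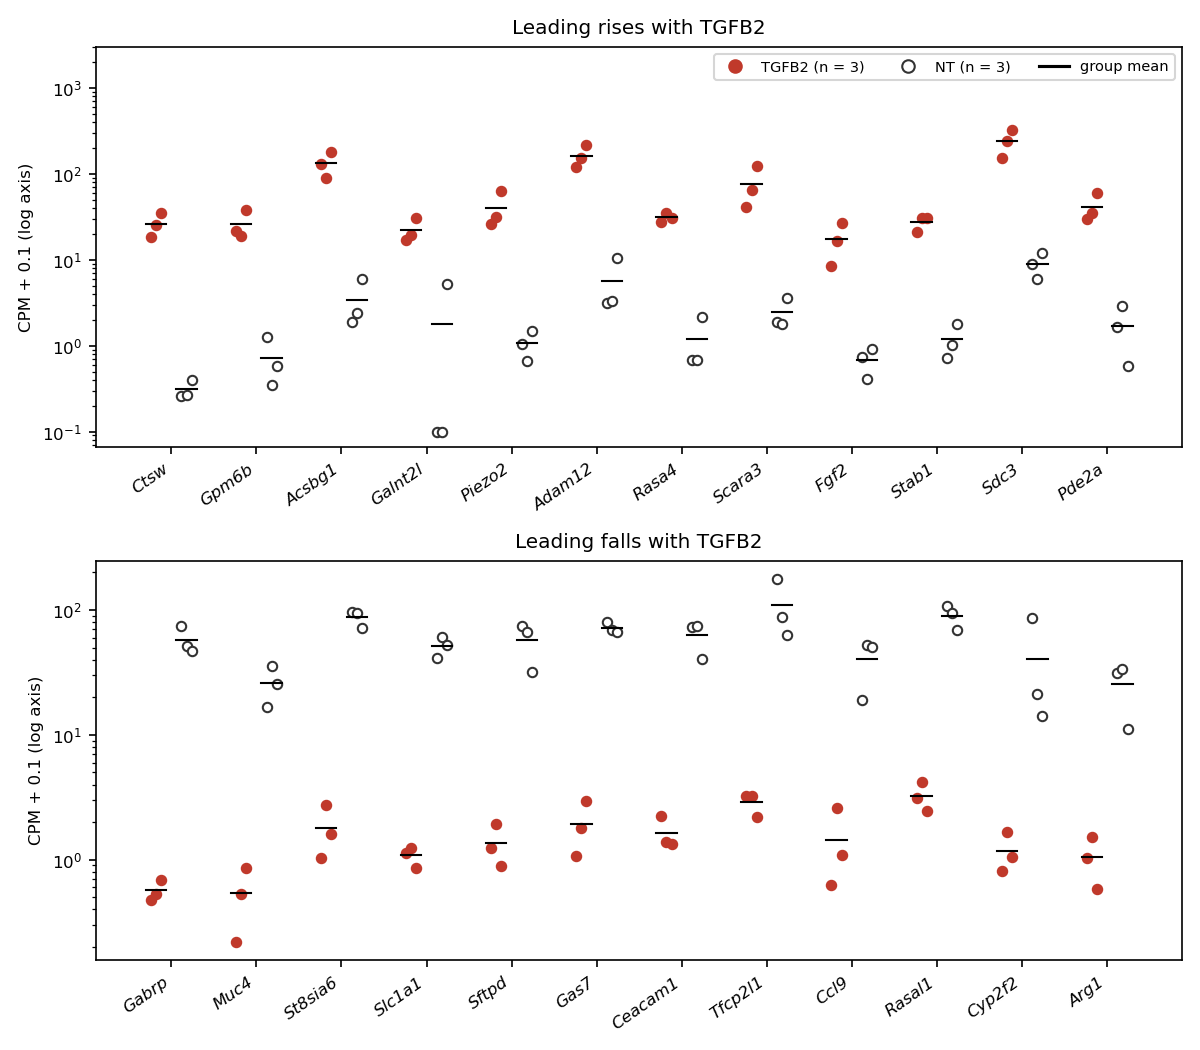
CPM plus 0.1 (log axis) of the 24 leading genes in each of the 3 TGFB2 libraries (filled, left of each pair) and the 3 NT libraries (open, right), rises in the upper panel and falls in the lower; the short lines are group means. Genes were taken only where the groups did not overlap, and Galnt2l has NT libraries at 0, 0 and 5.06 CPM.

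The 12 leading falls, ranked in the same way, left a few CPM or less in TGFB2 libraries. Gabrp, the pi subunit of a GABA-gated chloride channel (ENSMUSG00000020159.8, chromosome 11, 33550781 to 33578959), had 0.379, 0.428 and 0.592 CPM in TGFB2 libraries, against 74, 51.1 and 46.8 CPM in NT libraries (log2 fold change -6.92 ± 0.27, adjusted p = 0.000313). St8sia6, a sialyltransferase (ENSMUSG00000003418.11, chromosome 2, 13651021 to 13794064), had 0.925, 2.63 and 1.52 CPM in TGFB2 libraries, against 96.8, 95.3 and 72.2 CPM in NT libraries (log2 fold change -5.77 ± 0.31, adjusted p = 0.000432). Tfcp2l1, a transcription factor of the grainyhead superfamily known from ductal epithelia (ENSMUSG00000026380.10, chromosome 1, 118627945 to 118685168), had 3.11, 3.16 and 2.11 CPM in TGFB2 libraries, against 178, 88.3 and 63 CPM in NT libraries (log2 fold change -5.19 ± 0.24, adjusted p = 0.000347). The lowest NT library lay more than 10 times above the highest TGFB2 library in each. Sftpd, the surfactant-associated lectin that binds microbes, had 1.14, 1.84 and 0.790 CPM in TGFB2 libraries, against 74.7, 66.4 and 31.6 CPM in NT libraries (log2 fold change -5.51 ± 0.21, adjusted p = 0.000306). Ceacam1, an adhesion molecule with an inhibitory tail, had 2.13, 1.28 and 1.24 CPM in TGFB2 libraries, against 73.4, 75 and 40.5 CPM in NT libraries (log2 fold change -5.31 ± 0.23, adjusted p = 0.000339). Rasal1, like Rasa4 a calcium-sensitive GTPase-activating protein for RAS, had 3.01, 4.08 and 2.37 CPM in TGFB2 libraries, against 107, 93.9 and 69.2 CPM in NT libraries (log2 fold change -4.84 ± 0.16, adjusted p = 0.000306). Rasal1 thus fell while its relative Rasa4 rose. The cytoskeletal adaptor Gas7 (-5.36), the chemokine Ccl9 (-5.03), the cytochrome P450 Cyp2f2 (-4.81) and the mucin Muc4 (-5.99) fell too. Cyp2f2 varied widely among untreated cultures, with 85.5, 21.1 and 14.1 CPM in NT replicates 1, 2 and 3. Muc4 shares exons with its neighbour Muc20, which fell as well (-2.37), so the share of each is uncertain.

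Transporters changed in both directions. Of 394 tested genes in 12 lists of transporters, channels and pumps, 82 rose (20.8%) and 77 fell (19.5%); without replicates 1, 2 and 3 in turn, 98, 47 and 43 rose and 85, 62 and 52 fell. Among amino acid transporters 9 of 29 tested members rose and 5 fell. Slc6a6, the taurine transporter, had 1412, 1888 and 1995 CPM in TGFB2 libraries, against 255, 270.4 and 287 CPM in NT libraries (log2 fold change 2.69 ± 0.14, adjusted p = 0.00042). Slc1a1, a sodium-coupled carrier of glutamate, aspartate and cysteine, had 1.04, 1.15 and 0.761 CPM in TGFB2 libraries, against 40.9, 61.1 and 52 CPM in NT libraries (log2 fold change -5.68 ± 0.22, adjusted p = 0.000306). Slc6a14, which takes up neutral and cationic amino acids, had 5.03, 5.56 and 1.21 CPM in TGFB2 libraries, against 59.7, 33.2 and 25.4 CPM in NT libraries (log2 fold change -3.45 ± 0.34, adjusted p = 0.00212). The groups were separate in all 3, Slc6a6 being high with TGFB2 and the other two low. Slc1a5, a glutamine carrier of the same family as Slc1a1, fell by 1.54 in log2 terms. Most of the amino acid transporters that rose are not named here. All 14 members that passed had the same sign in BMP4-TGFB2 against BMP4. Over all genes tested in both, 94.7% of those that rose and 97.1% of those that fell kept their sign there.

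Among sugar and monocarboxylate transporters 5 of 19 tested members rose and 7 fell (in turn 6, 6, 4 fell). Slc5a1, the sodium-glucose cotransporter SGLT1, had 8.56, 8.46 and 3.61 CPM in TGFB2 libraries, against 82, 52.5 and 45.8 CPM in NT libraries (log2 fold change -3.17 ± 0.22, adjusted p = 0.000821). Slc5a8, a sodium-coupled carrier of lactate and short-chain fatty acids, had 17, 13.8 and 5.58 CPM in TGFB2 libraries, against 137, 78.3 and 78.9 CPM in NT libraries (log2 fold change -3.09 ± 0.26, adjusted p = 0.00135). Slc5a9, which carries mannose and glucose with sodium, fell by 3.07. In each of the 3 every TGFB2 library was below every NT library. Slc16a12, a creatine carrier of the monocarboxylate family, had 19.9, 17.9 and 10.8 CPM in TGFB2 libraries, against 1.15, 0.420 and 0.748 CPM in NT libraries (log2 fold change 4.42 ± 0.35, adjusted p = 0.00117). The lactate exporter Slc16a3 (2.56), the urate carrier Slc2a9 (1.92) and the insulin-responsive glucose carrier Slc2a4 (1.72) rose at low levels, Slc2a4 averaging 6.21 ± 2.36 CPM in TGFB2 libraries and 1.81 ± 0.161 CPM in NT libraries (SD, n = 3 each).

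Among carriers of ions and metals some genes rose and others fell. Of the sodium, proton, bicarbonate, chloride, sulfate and phosphate transporters, 10 of 37 tested members rose and 7 fell (in turn 11, 7, 5 rose and 9, 3, 3 fell). Slc34a2, the sodium-phosphate cotransporter of secretory epithelia, had 5.29, 9.05 and 3.83 CPM in TGFB2 libraries, against 73.2, 96.2 and 71 CPM in NT libraries (log2 fold change -3.79 ± 0.18, adjusted p = 0.000357). Slc20a1, a sodium-phosphate carrier found in most cells, had 300.2, 227 and 209 CPM in TGFB2 libraries, against 144, 96.6 and 118 CPM in NT libraries (log2 fold change 1.04 ± 0.12, adjusted p = 0.0036). The 2 phosphate carriers thus went opposite ways, each without overlap between groups. Slc4a11, a borate transporter homologue that moves protons, had 349, 333 and 273 CPM in TGFB2 libraries, against 86.8, 40.4 and 39.5 CPM in NT libraries (log2 fold change 2.62 ± 0.21, adjusted p = 0.00124). Of the zinc, iron, copper and magnesium transporters, 13 of 40 tested members rose and 7 fell (in turn 13, 8, 6 rose). Iron genes are a case in point: Ftl1, the ferritin light chain that stores iron, had 3725, 3119 and 3005 CPM in TGFB2 libraries, against 1453, 1127 and 1357 CPM in NT libraries (log2 fold change 1.33 ± 0.15, adjusted p = 0.00283). Tfrc, the transferrin receptor that brings iron in, had 165, 134 and 163 CPM in TGFB2 libraries, against 309, 409.8 and 455 CPM in NT libraries (log2 fold change -1.33 ± 0.18, adjusted p = 0.00582). Slc11a2, the divalent metal transporter that moves iron into the cytosol, fell by 1.03. Ftl1 was higher and Tfrc and Slc11a2 were lower in every TGFB2 library than in any NT library. Ftl1 is the only ferritin gene given here. The whole metal list summed to 11968, 9713 and 7405 CPM in TGFB2 libraries, against 13437, 10383 and 12145 CPM in NT libraries. Within each replicate number this sum was lower with TGFB2, although Ftl1 was higher. The members other than Ftl1 therefore summed to less with TGFB2, against the direction of Ftl1. Which members made up that fall is not given here, and a change in iron storage or uptake was not tested. Ftl1 has near-identical copies in the genome, between which reads may be split. The zinc importer Slc39a4 (-1.56) fell and the metalloreductase Steap2 (1.61) rose, while its relative Steap4 (-2.45) fell.

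The ion pumps leaned towards lower levels. Of these, 5 of 29 tested members rose and 12 fell, with a median log2 fold change of -0.35. Atp1b1, the beta 1 subunit of the sodium-potassium pump, had 34.5, 55.1 and 20.2 CPM in TGFB2 libraries, against 689, 412 and 365 CPM in NT libraries (log2 fold change -3.80 ± 0.31, adjusted p = 0.00125). Fxyd5, a small regulator of the same pump, had 106, 84 and 83.5 CPM in TGFB2 libraries, against 13, 8.83 and 14.1 CPM in NT libraries (log2 fold change 2.95 ± 0.17, adjusted p = 0.00048). The subunit and the regulator changed in opposite directions with no overlap. The calcium pump Atp2b4 (1.38) rose, and the calcium pump Atp2a3 (-3.20) and the lysosomal cation pump Atp13a2 (-1.22) fell. Of carbonic anhydrases, which interconvert carbon dioxide and bicarbonate, 5 of 10 tested members fell, with 0 that rose by edgeR (in turn 1, 0 and 0; 0 at an unadjusted p under 0.05 and 0 by DESeq2) and a median of -1.03. Car12, a membrane-bound form, had 4.81, 3.85 and 3.50 CPM in TGFB2 libraries, against 182, 84.5 and 44.8 CPM in NT libraries (log2 fold change -4.47 ± 0.31, adjusted p = 0.000837). Car2, the abundant cytosolic form, had 2.61, 9.61 and 7.84 CPM in TGFB2 libraries, against 57.9, 60.5 and 41.5 CPM in NT libraries (log2 fold change -3.13 ± 0.41, adjusted p = 0.005). Car6, the secreted form of saliva and milk, had 0.190, 0.165 and 0.282 CPM in TGFB2 libraries, against 31.9, 19 and 11.9 CPM in NT libraries (log2 fold change -6.51 ± 0.41, adjusted p = 0.000677). In Car12 and Car6 the NT libraries themselves spread by more than 2-fold, replicate 1 being highest, and still lay above all TGFB2 libraries. Subunits of the vacuolar proton pump went both ways, with 5 of 19 tested genes that rose and 6 that fell (in turn 5, 2, 2 rose and 6, 3, 3 fell), a set counted after its values were seen. Among the falls were Atp6v1b1, known from acid-secreting epithelia, at 0.166, 0.263 and 0.113 CPM in TGFB2 libraries, against 4.05, 3.05 and 2.34 CPM in NT libraries (log2 fold change -4.13 ± 0.44, adjusted p = 0.0026), and Atp6v1c2 (-3.23). The potassium channel Kcnk1 (-1.23) and the calcium-activated Kcnn4 (-1.34) fell, in a list of potassium channels where 2 of 25 tested members rose and 4 fell (in turn 0, 0, 0 rose).

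**Figure D2:**
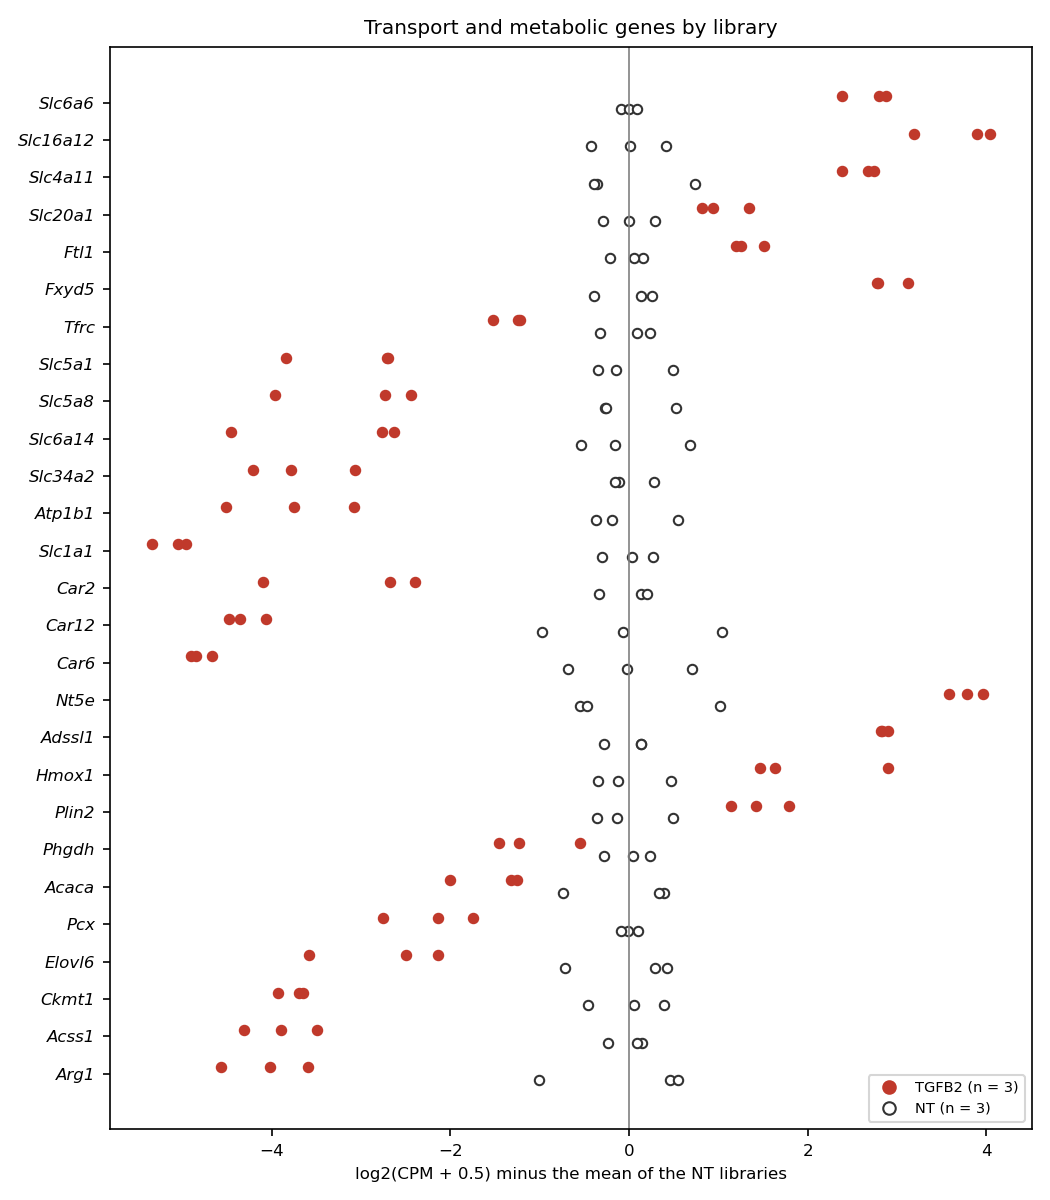
Log2 CPM (offset 0.5) relative to the NT mean for transporters, pumps, carbonic anhydrases and metabolic enzymes named in the text, with the 3 TGFB2 libraries filled and drawn above the 3 open NT libraries in each row. Slc16a12, Nt5e and Fxyd5 lie to the right in all TGFB2 libraries, and Car6, Slc1a1 and Acss1 to the left.

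Transcription factor families were split between rises and falls. Of 315 tested genes in 9 lists, 67 rose (21.3%) and 62 fell (19.7%); without replicates 1, 2 and 3 in turn, 84, 39 and 37 rose and 68, 46 and 38 fell. The bZIP family, which holds the AP-1 subunits, leaned upwards: 16 of 45 tested members rose and 4 fell (in turn 19, 10, 10 rose). Junb, an AP-1 subunit, had 661, 528 and 810.0 CPM in TGFB2 libraries, against 211, 124 and 188 CPM in NT libraries (log2 fold change 1.95 ± 0.14, adjusted p = 0.000861). Maff, a small MAF partner, rose by 1.91. Batf3, an AP-1 partner known from dendritic cells, had 4.86, 6.52 and 4.09 CPM in TGFB2 libraries, against 0.373, 0.252 and 0.389 CPM in NT libraries (log2 fold change 3.90 ± 0.39, adjusted p = 0.00212). The unfolded protein response factor Xbp1 (-0.94) was one of the 4 that fell. Among ETS factors 5 of 18 tested members rose and 5 fell (in turn 6, 3, 3 rose), and the members were unlike: Ets1 had 125, 124 and 184 CPM in TGFB2 libraries, against 36.5, 23.8 and 37.6 CPM in NT libraries (log2 fold change 2.15 ± 0.14, adjusted p = 0.000786), while Ehf, an epithelial ETS factor, had 216, 238 and 191 CPM in TGFB2 libraries, against 751, 745 and 779 CPM in NT libraries (log2 fold change -1.82 ± 0.13, adjusted p = 0.000945). Etv5, which is induced by FGF signalling, fell by 2.44.

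Several developmental factors stood at the extremes. Sox11 had 31.5, 35.1 and 52.9 CPM in TGFB2 libraries, against 1.92, 1.85 and 2.48 CPM in NT libraries (log2 fold change 4.24 ± 0.16, adjusted p = 0.000306). Sox4, its close relative, rose by 1.18, while Sox10, known from mammary progenitors and the neural crest, had 57.3, 36.3 and 41.1 CPM in TGFB2 libraries, against 125, 125 and 144 CPM in NT libraries (log2 fold change -1.57 ± 0.18, adjusted p = 0.00342). The 3 SOX genes showed no overlap, and in the SOX list 2 of 10 tested members rose and 4 fell (in turn 4, 3, 2 fell). Foxf1 and Foxf2, forkhead factors of mesenchyme, rose by 2.89 and 3.09, and Foxj1, the factor of motile cilia, had 48.8, 34.1 and 26.4 CPM in TGFB2 libraries, against 6.02, 2.02 and 1.71 CPM in NT libraries (log2 fold change 3.66 ± 0.25, adjusted p = 0.000786). Calcium-responsive Nfatc2 (2.86) and Nfatc4 (5.08), the repressor Prdm1 (4.29) and the YAP partner Tead2 (1.51) rose. Tfap2c, the AP-2 gamma factor of luminal cells, had 1.16, 0.691 and 1.49 CPM in TGFB2 libraries, against 25.2, 28.5 and 21.9 CPM in NT libraries (log2 fold change -4.50 ± 0.33, adjusted p = 0.000958). Trps1, a GATA-type repressor of luminal cells, had 66, 98.5 and 63.6 CPM in TGFB2 libraries, against 259, 246 and 208 CPM in NT libraries (log2 fold change -1.66 ± 0.14, adjusted p = 0.00142). Barx2, a homeobox factor, fell by 3.44. Among nuclear receptors 4 of 33 tested members rose and 9 fell (in turn 6, 1, 0 rose and 7, 4, 6 fell), and the orphan receptors Nr4a2 (-1.07) and Nr4a3 (-1.69) were on the side of the falls.

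Since AP-1 genes were among the rises, the promoters of RefSeq (GRCm38.p6; 250 bases before to 50 after a start, first entry per symbol) were searched for 3 motifs on both strands, with 10557 tested genes matched by symbol. The AP-1 motif TGANTCA, which reads the same on both strands, was in 8.58% of 1527 promoters of genes that rose, 5.86% of 1434 of genes that fell and 5.30% of all. In genes that rose by at least 2 log2 units the share was 13.9% of 331, and in those that fell by at least 2 it was 10.9% of 284. The SMAD-binding motif CAGACA, whose complement is TGTCTG, was in 18.9% of rising, 13.8% of falling and 15.6% of all promoters, and in 23.6% and 16.5% of those that rose or fell by at least 2. The TEAD motif GGAATG, whose complement is CATTCC, was in 13.6% of rising, 12.9% of falling and 12.1% of all promoters, and in 13.3% and 17.6% of those that rose or fell by at least 2. The motifs do not overlap in letters, and these shares are descriptions without a test. The stretches around the AP-1 motif of 3 genes that rose, chosen after their values were seen, are shown as examples of a match, 5′ to 3′ on the gene's strand with the motif in capitals.

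Mmp10 promoter: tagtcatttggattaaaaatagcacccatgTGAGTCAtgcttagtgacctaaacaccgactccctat
Prdm1 promoter: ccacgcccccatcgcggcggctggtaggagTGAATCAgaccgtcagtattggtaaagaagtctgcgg
Adssl1 promoter: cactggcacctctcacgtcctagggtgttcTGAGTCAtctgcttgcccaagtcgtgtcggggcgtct

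They lie at chr9:7502249-7502315 on the plus strand for Mmp10, a stromelysin, at chr10:44458760-44458826 on the minus strand for Prdm1, and at chr12:112619852-112619918 on the plus strand for Adssl1, an enzyme of AMP synthesis. The motif begins 63, 48 and 165 bases before the start. The genes rose by 4.63, 4.29 and 2.98. Mmp10 had 6.59, 5.96 and 37.1 CPM in TGFB2 libraries, against 0.0799, 0.336 and 1.92 CPM in NT libraries, so TGFB2 replicate 3 was far above the others. A match of letters is not evidence of binding.

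The lists drawn up for secreted factors leaned upwards. They also hold IGF receptors and membrane proteins such as Adam12, Tmprss4 and Mmp15, so the shares are not of secreted proteins alone. Of 338 tested genes in 12 lists, 101 rose (29.9%) and 56 fell (16.6%); without replicates 1, 2 and 3 in turn, 112, 69 and 71 rose and 54, 50 and 39 fell. Growth factor ligands of the FGF, PDGF, VEGF, HGF, angiopoietin-like and neurotrophic families leaned upwards: 14 of 34 tested members rose and 2 fell (in turn 3, 1, 1 fell), with a median of 1.11. Pdgfb, the platelet-derived growth factor B chain, which acts on mesenchymal cells, had 463, 381 and 566 CPM in TGFB2 libraries, against 16.8, 13.9 and 31.1 CPM in NT libraries (log2 fold change 4.58 ± 0.19, adjusted p = 0.000338). Angptl4, which inhibits lipoprotein lipase, had 46.9, 61.9 and 77.1 CPM in TGFB2 libraries, against 10.2, 6.22 and 12.9 CPM in NT libraries (log2 fold change 2.69 ± 0.22, adjusted p = 0.00129). The groups were apart in both. Angptl2 rose by 1.51, and Gas6, the ligand of TYRO3, AXL and MERTK, had 45.1, 97.6 and 30.8 CPM in TGFB2 libraries, against 279.7, 182 and 114 CPM in NT libraries (log2 fold change -1.80 ± 0.31, adjusted p = 0.0112).

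Cytokine ligands went both ways, 7 of 30 tested members rose and 9 fell (in turn 9, 4, 6 rose). Clcf1, an IL6-family cytokine, rose by 1.5. Kitl, the ligand of KIT, had 19.8, 32.6 and 18.2 CPM in TGFB2 libraries, against 122, 104 and 90.4 CPM in NT libraries (log2 fold change -2.20 ± 0.19, adjusted p = 0.00142), and its receptor Kit had 1.14, 1.55 and 1.41 CPM in TGFB2 libraries, against 41.5, 19.2 and 18.9 CPM in NT libraries (log2 fold change -4.18 ± 0.35, adjusted p = 0.00133). Both the ligand and the receptor were thus lower in every TGFB2 library. Tnfsf10, the death ligand TRAIL, had 0.688, 1.32 and 0.423 CPM in TGFB2 libraries, against 15.4, 12 and 10.3 CPM in NT libraries (log2 fold change -4.05 ± 0.35, adjusted p = 0.00142). Among semaphorins, netrins, slits and ephrins 12 of 34 tested members rose and 8 fell (in turn 11, 6, 6 rose and 7, 7, 5 fell), with Sema4f (2.42) and Efna1 (1.82) up and Efna5 (-1.74), Sema3e (-1.44) and Sema3b (-2.97) down. Of their receptors 6 of 24 rose and 0 fell (in turn 7, 2 and 2 rose and 0, 2 and 0 fell) by edgeR, with 5 lower at an unadjusted p under 0.05 and 4 that fell by DESeq2. The rises included the netrin receptor Unc5b (1.97) and the ephrin receptor Ephb2 (4.34). Of the Wnt antagonists and R-spondins, 3 of 13 tested members rose and 4 fell (in turn 4, 5, 1 fell). Rspo3, a ligand that strengthens Wnt signalling, rose by 3.67 and its receptor Lgr6 had 29.6, 16.6 and 28.5 CPM in TGFB2 libraries, against 1.01, 0.785 and 1.23 CPM in NT libraries (log2 fold change 4.61 ± 0.21, adjusted p = 0.000347). Wif1, which binds and inhibits Wnt proteins, had 2.44, 1.02 and 1.78 CPM in TGFB2 libraries, against 64.1, 33.7 and 16.3 CPM in NT libraries (log2 fold change -4.30 ± 0.39, adjusted p = 0.00165).

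Proteases, their inhibitors and proteoglycans held further large changes. Among cathepsins, granzymes, serine proteases and matrix metalloproteases 18 of 54 tested members rose and 9 fell. Plau, the urokinase that activates plasminogen, had 70.0, 61.7 and 110.1 CPM in TGFB2 libraries, against 7.06, 9.33 and 15.1 CPM in NT libraries (log2 fold change 2.97 ± 0.17, adjusted p = 0.000532). Prss22, a tryptase-like protease, rose by 2.52. Tmprss4, a transmembrane serine protease of epithelium, had 2.21, 3.36 and 1.10 CPM in TGFB2 libraries, against 41.9, 56.7 and 32.2 CPM in NT libraries (log2 fold change -4.37 ± 0.21, adjusted p = 0.000347). Mmp15, a membrane-type metalloprotease, had 8.37, 9.54 and 11.5 CPM in TGFB2 libraries, against 88.4, 79.7 and 59.4 CPM in NT libraries (log2 fold change -2.94 ± 0.22, adjusted p = 0.00096). No library of one group reached into the other in these 4. Of the serpins, 8 of 19 tested members rose and 1 fell (in turn 11, 5, 5 rose and 1, 1, 0 fell), including the collagen chaperone Serpinh1 (1.07). Timp1, an inhibitor of metalloproteases, had 73.6, 172 and 161 CPM in TGFB2 libraries, against 16.8, 36.9 and 45.8 CPM in NT libraries (log2 fold change 2.06 ± 0.13, adjusted p = 0.000667), whereas Wfdc18, a whey acidic protein family member, had 9.49, 14.6 and 6.63 CPM in TGFB2 libraries, against 129, 213 and 169 CPM in NT libraries (log2 fold change -4.09 ± 0.22, adjusted p = 0.000445). Proteoglycans and matrix glycoproteins gave 18 rises and 5 falls in 57 tested (in turn 21, 12 and 10 rose and 5, 3 and 3 fell). Gpc1, a glypican, had 596, 665 and 639 CPM in TGFB2 libraries, against 33.7, 28.4 and 48.4 CPM in NT libraries (log2 fold change 4.14 ± 0.20, adjusted p = 0.000347). Fbln2, fibulin 2, had 354, 433 and 1033 CPM in TGFB2 libraries, against 24.3, 19.3 and 68.8 CPM in NT libraries (log2 fold change 4.09 ± 0.17, adjusted p = 0.000338). Both were more than 5 times higher in the lowest TGFB2 library than in the highest NT library. Of enzymes that build and sulfate glycosaminoglycan chains, 19 of 41 tested members rose and 6 fell (in turn 21, 13, 12 rose). Chsy1, which polymerises chondroitin, rose by 2.54, the chondroitin sulfotransferase Chst11 by 4.90, and the heparan sulfotransferase Hs3st1 fell by 1.58.

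**Figure D3:**
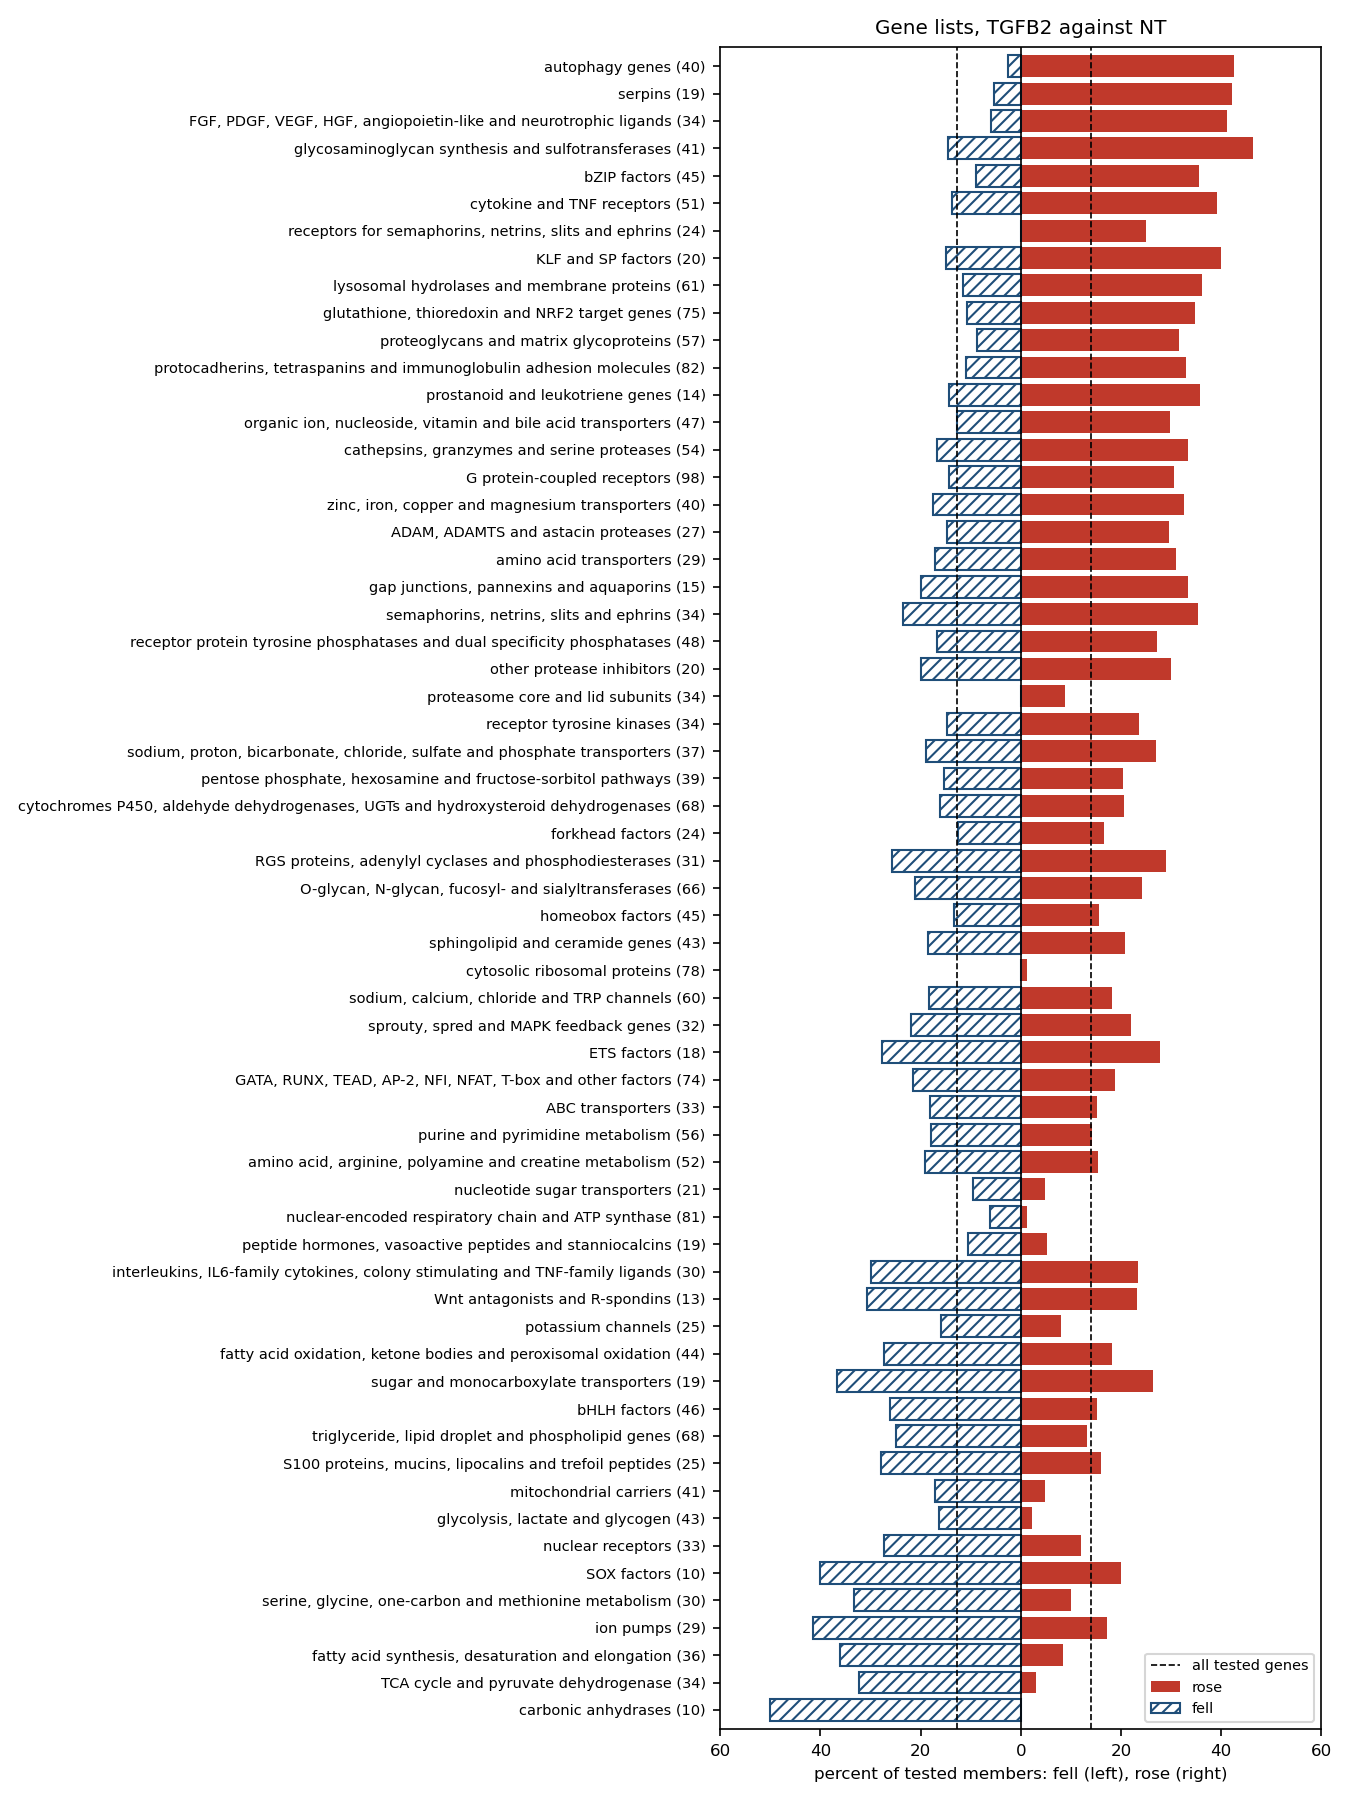
Percent of tested members of each gene list drawn that rose (right, filled) and fell (left, hatched) with TGFB2 against NT, with the number tested in brackets; dashed lines mark the 14.1% and 12.8% of all tested genes. Glycosaminoglycan synthesis, autophagy and serpins have the longest right-hand bars and carbonic anhydrases and ion pumps the longest left-hand bars, and cytosolic ribosomal proteins almost none.

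Receptors, signalling and adhesion genes gave 136 rises (27.2%) and 79 falls (15.8%) among 500 tested in 9 lists; without replicates 1, 2 and 3 in turn, 159, 91 and 84 rose and 85, 69 and 52 fell. Of cytokine and TNF receptors, 20 of 51 tested members rose and 7 fell. Il18rap and Il18r1, the 2 chains of the interleukin 18 receptor, rose together: Il18rap had 50.6, 60.1 and 104 CPM in TGFB2 libraries, against 4.45, 4.26 and 6.17 CPM in NT libraries (log2 fold change 3.81 ± 0.16, adjusted p = 0.000338), and Il18r1 had 34.3, 54.6 and 64.8 CPM in TGFB2 libraries, against 6.18, 4.90 and 10.9 CPM in NT libraries (log2 fold change 2.84 ± 0.22, adjusted p = 0.00111). Il4ra, the interleukin 4 receptor chain, rose by 1.83. Prlr, the prolactin receptor, had 21.7, 34.4 and 17.6 CPM in TGFB2 libraries, against 193, 162 and 152 CPM in NT libraries (log2 fold change -2.83 ± 0.20, adjusted p = 0.000899). Of receptor tyrosine kinases, 8 of 34 tested members rose and 5 fell (in turn 6, 3, 3 fell). Mertk fell by 3.54, in the same direction as its ligand Gas6, while its relative Tyro3 rose by 1.05. Met, the HGF receptor, had 76.6, 103 and 97.9 CPM in TGFB2 libraries, against 181, 217 and 251 CPM in NT libraries (log2 fold change -1.22 ± 0.11, adjusted p = 0.00174). Among G protein-coupled receptors 30 of 98 tested members rose and 14 fell (in turn 14, 12, 7 fell). On the side of the fewer falls, the VIP receptor Vipr1 had 0.166, 0.461 and 0.254 CPM in TGFB2 libraries, against 17.9, 13.4 and 10.7 CPM in NT libraries (log2 fold change -5.60 ± 0.40, adjusted p = 0.000861).

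Genes of cyclic AMP and MAP kinase control went both ways. Of RGS proteins, adenylyl cyclases and phosphodiesterases, 9 of 31 tested members rose and 8 fell (in turn 10, 6, 5 rose). Rgs2, which shortens Gq signals, had 2.92, 2.2 and 1.61 CPM in TGFB2 libraries, against 53.6, 26 and 26 CPM in NT libraries (log2 fold change -3.93 ± 0.18, adjusted p = 0.000347). Adenylyl cyclase Adcy7 rose by 2.45 and adenylyl cyclase Adcy8 fell by 3.53. The MAP kinase feedback gene Phlda1 had 155, 103 and 131 CPM in TGFB2 libraries, against 485, 450.2 and 363 CPM in NT libraries (log2 fold change -1.74 ± 0.17, adjusted p = 0.00208). Dusp6, the phosphatase of ERK, had 54, 51.5 and 85.1 CPM in TGFB2 libraries, against 238, 173 and 158 CPM in NT libraries (log2 fold change -1.59 ± 0.24, adjusted p = 0.00783). Spry4, another inhibitor of the pathway, fell by 2.03. In these 3 feedback genes no TGFB2 library overlapped an NT library, and in their list 7 of 32 tested members rose and 7 fell (in turn 9, 6, 3 rose). By at least 1 log2 unit 5 rose and 5 fell, and the members of this list that rose are not named here. Protocadherins, tetraspanins and immunoglobulin adhesion molecules leaned upwards, 27 of 82 tested members rose and 9 fell (in turn 31, 18, 14 rose), with Nectin3 (3.14), Tspan7 (2.49) and Igsf11 (3.57) as examples.

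Metabolic genes as a whole went both ways, while the lists of the TCA cycle and fatty acid synthesis held more falls than rises. Of 877 tested genes in 19 lists, 173 rose (19.7%) and 157 fell (17.9%); without replicates 1, 2 and 3 in turn, 201, 85 and 88 rose and 214, 98 and 86 fell. In the TCA cycle and pyruvate dehydrogenase list 1 of 34 tested members rose and 11 fell (in turn 1, 0, 0 rose and 16, 5, 5 fell), 2 of them by at least 1 log2 unit. Pcx, pyruvate carboxylase, which refills the cycle, had 24, 48.8 and 36.9 CPM in TGFB2 libraries, against 163, 176 and 155 CPM in NT libraries (log2 fold change -2.23 ± 0.19, adjusted p = 0.00133). Idh3a, an isocitrate dehydrogenase subunit, fell by 0.76. In fatty acid synthesis, desaturation and elongation 3 of 36 tested members rose and 13 fell (in turn 3, 1, 1 rose and 16, 9, 7 fell). Elovl6, which elongates palmitate, had 11.3, 24.5 and 31.6 CPM in TGFB2 libraries, against 85.1, 189 and 172 CPM in NT libraries (log2 fold change -2.76 ± 0.15, adjusted p = 0.000434). Acaca, acetyl-CoA carboxylase, had 80.0, 135 and 128 CPM in TGFB2 libraries, against 193, 423 and 406 CPM in NT libraries (log2 fold change -1.52 ± 0.14, adjusted p = 0.00176). Acss1, the mitochondrial acetyl-CoA synthetase, had 0.996, 2.14 and 1.49 CPM in TGFB2 libraries, against 32.3, 31.1 and 24.8 CPM in NT libraries (log2 fold change -4.29 ± 0.27, adjusted p = 0.000638). Elovl6 and Acaca were lowest in replicate 1 of both groups, and neither overlapped. Fads3 rose by 1.71 in the same list. In fatty acid and ketone body oxidation 8 of 44 tested members rose and 12 fell (in turn 9, 1, 0 rose and 13, 7, 7 fell), with the ketone body enzyme Oxct1 at 144, 191 and 180.1 CPM in TGFB2 libraries, against 485, 499.8 and 498 CPM in NT libraries (log2 fold change -1.53 ± 0.12, adjusted p = 0.00124). Of genes of triglycerides, lipid droplets and phospholipids, 9 of 68 tested members rose and 17 fell (in turn 19, 11, 10 fell). Plin2, the coat protein of lipid droplets, had 1034, 661 and 805 CPM in TGFB2 libraries, against 423, 272 and 233 CPM in NT libraries (log2 fold change 1.46 ± 0.16, adjusted p = 0.00254), while the fatty acid carrier Fabp5 (-2.27) and Xdh (-2.01), which is known for a role in milk fat secretion, fell.

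Falls also outnumbered rises among one-carbon enzymes. Of genes of serine, glycine, one-carbon and methionine metabolism, 3 of 30 tested members rose and 10 fell (in turn 4, 2, 1 rose and 20, 6, 7 fell). Phgdh, the first enzyme of serine synthesis, had 211, 131 and 112 CPM in TGFB2 libraries, against 364, 318 and 255 CPM in NT libraries (log2 fold change -1.08 ± 0.15, adjusted p = 0.00593). Mthfd1, a folate enzyme, fell by 1.02. Arg1, the cytosolic arginase, had 0.925, 1.42 and 0.479 CPM in TGFB2 libraries, against 31.3, 33.5 and 11 CPM in NT libraries (log2 fold change -4.73 ± 0.21, adjusted p = 0.000339). Ckmt1, the mitochondrial creatine kinase, had 5.22, 6.25 and 6.43 CPM in TGFB2 libraries, against 114, 90.1 and 63.1 CPM in NT libraries (log2 fold change -3.86 ± 0.24, adjusted p = 0.000638). Glul, glutamine synthetase, had 57.8, 104 and 70.4 CPM in TGFB2 libraries, against 256, 249 and 250.4 CPM in NT libraries (log2 fold change -1.74 ± 0.18, adjusted p = 0.00219). None of these 4 genes with values shown had overlapping groups. In the list of amino acid, arginine, polyamine and creatine metabolism, 8 of 52 tested members rose and 10 fell (in turn 8, 3, 1 rose). Of glycolysis, lactate and glycogen genes, 1 of 43 tested members rose and 7 fell (in turn 3, 0, 1 rose and 12, 5, 4 fell), with the inhibitor kinase Pdk1 (-1.21) and the aldolase Aldoc (-1.52) among the falls. Of pentose phosphate, hexosamine and fructose-sorbitol genes, 8 of 39 tested members rose and 6 fell (in turn 8, 3, 2 rose and 10, 3, 4 fell), at a median of -0.02, with Gfpt1 (-1.42), whose enzyme feeds glucose into hexosamines, and Gmds (-1.76), whose enzyme acts in making GDP-fucose, among the falls. The ectonucleotidase Nt5e, CD73, which makes adenosine from AMP, had 469, 539.8 and 614 CPM in TGFB2 libraries, against 79, 26.3 and 27.9 CPM in NT libraries (log2 fold change 3.81 ± 0.41, adjusted p = 0.0026), and Adssl1 had 36.2, 38 and 35.9 CPM in TGFB2 libraries, against 5.19, 3.76 and 5.18 CPM in NT libraries (log2 fold change 2.98 ± 0.17, adjusted p = 0.000487). Both were clear of the NT libraries, within a list of purine and pyrimidine genes where 8 of 56 tested members rose and 10 fell (in turn 8, 4, 3 rose and 15, 5, 3 fell).

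Antioxidant, lysosomal and autophagy lists held more rises than falls, though the lysosomal list did not without replicate 2 or 3. Of glutathione, thioredoxin and NRF2 target genes, 26 of 75 tested members rose and 8 fell (in turn 27, 12, 19 rose and 7, 3, 4 fell). Hmox1, heme oxygenase 1, had 249, 92.5 and 104 CPM in TGFB2 libraries, against 46, 25.8 and 30.3 CPM in NT libraries (log2 fold change 2.02 ± 0.18, adjusted p = 0.00152). Gpx8, a peroxidase of the endoplasmic reticulum, rose by 1.49. Cbr2, a carbonyl reductase, went against them, with 47.8, 162 and 53.3 CPM in TGFB2 libraries, against 1081, 1341 and 806 CPM in NT libraries (log2 fold change -3.82 ± 0.29, adjusted p = 0.00105). Of autophagy genes, 17 of 40 tested members rose and 1 fell (in turn 19, 10, 7 rose and 0, 0, 0 fell), with a median of 0.33. Sqstm1, the cargo receptor p62, had 2747, 1274 and 1216 CPM in TGFB2 libraries, against 967, 311 and 317 CPM in NT libraries (log2 fold change 1.83 ± 0.15, adjusted p = 0.00133). Gabarapl1, an ATG8 family protein, had 235, 163 and 137 CPM in TGFB2 libraries, against 123, 73.6 and 67.9 CPM in NT libraries (log2 fold change 1.04 ± 0.11, adjusted p = 0.00221). Pink1, the kinase of mitophagy, had 115, 81.5 and 74.3 CPM in TGFB2 libraries, against 57.3, 36 and 38.4 CPM in NT libraries (log2 fold change 1.05 ± 0.11, adjusted p = 0.00226). In all 3 genes replicate 1 was the highest of its group, and the groups did not overlap. Sqstm1 did not pass in 1 alternative, with no replicate block (adjusted p = 0.0513). Of lysosomal hydrolases and membrane proteins, 22 of 61 tested members rose and 7 fell (in turn 29, 4, 5 rose and 8, 7, 5 fell), 4 of the rises being of at least 1 log2 unit. With no replicate block 5 of these rose and 5 fell. Of sphingolipid and ceramide genes, 9 of 43 tested members rose and 8 fell (in turn 14, 5, 5 rose and 9, 5, 1 fell), with the sphingosine kinase Sphk1 at 477, 359.7 and 379 CPM in TGFB2 libraries, against 179, 148 and 130.2 CPM in NT libraries (log2 fold change 1.42 ± 0.12, adjusted p = 0.00142). In O-glycan, N-glycan, fucosyl- and sialyltransferases 16 of 66 tested members rose and 14 fell (in turn 20, 8, 9 rose), the branching enzyme Mgat4b at 435, 267 and 250.4 CPM in TGFB2 libraries, against 113, 57.4 and 73.6 CPM in NT libraries (log2 fold change 1.98 ± 0.13, adjusted p = 0.000777) and the fucosyltransferase Fut9 at 18.6, 26.4 and 25 CPM in TGFB2 libraries, against 104, 97.5 and 121 CPM in NT libraries (log2 fold change -2.21 ± 0.14, adjusted p = 0.000675).

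In some programs few genes passed, which does not show that they were unchanged. Of 78 tested ribosomal protein genes of the cytosol 1 rose and 0 fell by edgeR (in turn 1, 1 and 0 rose and 2, 0 and 0 fell). Falls of these numbered 1 at an unadjusted p under 0.05 and 0 by DESeq2, and reads of ribosomal protein genes may be shared with their many copies. Of proteasome subunits, 3 of 34 tested members rose and 0 fell (in turn 2, 1, 1 rose and 1, 0, 0 fell) by edgeR (falls: 0 at an unadjusted p under 0.05 and 0 by DESeq2). Of 81 nuclear-encoded subunits of the respiratory chain and ATP synthase 1 rose (in turn 1, 0 and 0) and 5 fell, at a median of -0.13. That last count depended on the replicates, as 19, 0 and 0 fell without replicates 1, 2 and 3. It was 14 at an unadjusted p under 0.05 and 8 by DESeq2.

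The effect of TGFB2 was then set beside its effect on cells that also received BMP4, from the other 6 libraries, which share no library with TGFB2 and NT. They do share replicate numbers. The chi-square per degree of freedom was 30, 36.6 and 19.4 between same-numbered TGFB2 and BMP4-TGFB2 libraries, against 110, 144 and 65.7 among TGFB2 libraries. Agreement between the comparisons is thus not that of unrelated cultures. BMP4-TGFB2 against BMP4 gave 2950 of 14183 genes past the same test, 20.8% (in turn 3004, 1197 and 2242). Of the 2002 genes that rose with TGFB2 alone and were tested there, 1896 had a positive log2 fold change, and of 1773 that fell, 1721 had a negative one, where 76.9% of all genes tested in both had 1 sign. The 1022 genes that rose in both were 50.6% of those with TGFB2 alone and 74.9% of those on BMP4, and the 1032 that fell in both were 56.1% and 65.1%. Genes that rose with TGFB2 alone had a median of 0.56 on BMP4 and 1.08 without it, but they were chosen in the second of these. Of the 2909 genes that passed on BMP4 and were tested in both, 1714 had the smaller size on BMP4. The difference between the effects itself passed for 280 of 15319 genes, 1.83% (edgeR, 12 libraries, replicate block). Without replicates 1, 2 and 3 in turn it passed for 145, 1 and 33. Each of these leaves out 4 libraries, 1 per group, and the count was lowest without replicate 2.

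All 24 leading genes kept their sign on BMP4, 22 passed there, and the difference passed for 13, in each case with the smaller size on BMP4, though these genes were chosen for their size without it. Sdc3 is an example, with 302, 484 and 534 CPM in BMP4-TGFB2 libraries, against 127, 118 and 162 CPM in BMP4 libraries. Its log2 fold change there was 1.66 ± 0.16 (adjusted p = 0.00354), against 4.74 without BMP4, and the difference was -3.03 (adjusted p = 0.00298). The BMP4 libraries of Sdc3 all lay above its NT libraries. Pdgfb had 451, 463 and 575 CPM in BMP4-TGFB2 libraries, against 66.1, 86.2 and 180.3 CPM in BMP4 libraries (2.28 ± 0.22, adjusted p = 0.00334; difference -2.30, adjusted p = 0.00805). Timp1 had 62.5, 143 and 176 CPM in BMP4-TGFB2 libraries, against 43.2, 115 and 130.2 CPM in BMP4 libraries (0.41 ± 0.08, adjusted p = 0.0207; difference -1.63, adjusted p = 0.00298). For Slc5a8 and Atp1b1 no difference was called: Slc5a8 stood at -3.16 ± 0.14 on BMP4 and -3.09 without it (difference 0.01, adjusted p = 0.995), and Atp1b1 at -3.59 ± 0.21 and -3.80 (difference 0.24, adjusted p = 0.801), which does not show that the effects are equal.

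**Figure D4:**
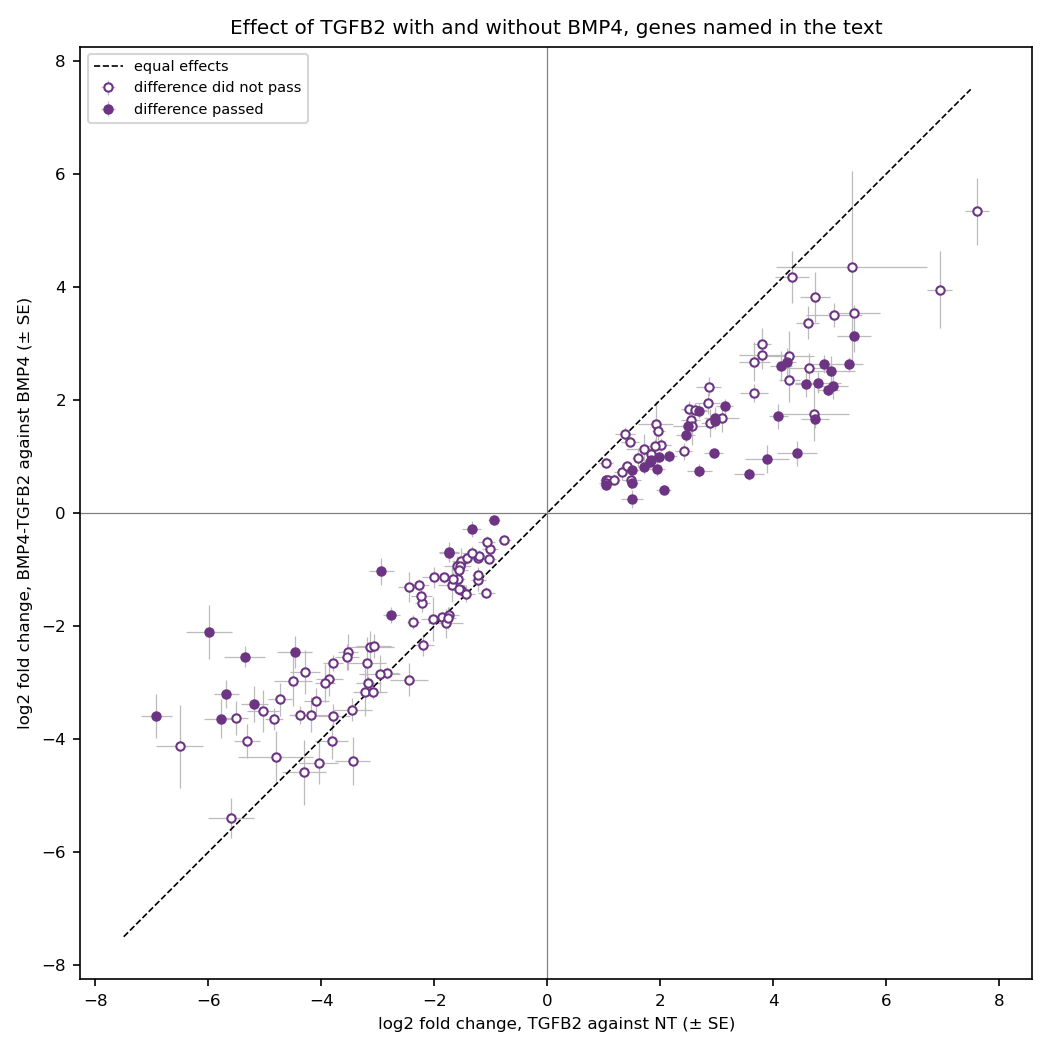
Log2 fold change of TGFB2 on BMP4-treated cells (vertical, BMP4-TGFB2 against BMP4) against that of TGFB2 alone (horizontal, TGFB2 against NT) for the genes named in the text, with SE bars; filled points are genes whose difference between the effects passed the test and the dashed line marks equal effects. All filled points lie nearer to 0 on the vertical than on the horizontal axis.

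TGFB2 and BMP4, each given alone, also differed directly: TGFB2 against BMP4 gave 2330 of 14350 genes, 16.2% (in turn 2764, 872 and 1380). That comparison uses the same TGFB2 libraries as the one with NT, so the values stand side by side only. Atp1b1 stood at -3.87 ± 0.25 against BMP4 (adjusted p = 0.000817) and -3.80 against NT, and Slc6a6 at 1.42 ± 0.10 (adjusted p = 0.000957) and 2.69. Sdc3 stood at 0.74 ± 0.16 (adjusted p = 0.0313) and 4.74. The zinc importer Slc39a4 did not pass against BMP4 (0.00 ± 0.17, adjusted p = 0.993) and stood at -1.56 against NT.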

How the data were processed

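Poly(A) RNA of 12 cultures was sequenced from both fragment ends, per the labels. GRCm38.p6 was the build and Salmon 1.2.1, STAR 2.7.5b and bcl2fastq 2.17 the tools, per the submitters' processing notes. The authors deposited estimated counts per gene, which were rounded here (82.9% were whole; the total changed by 0.000361%), and TPM, scaled by the authors for length and depth and used only in an alternative (limma on log2(TPM + 0.5)). Per the file headers the libraries were unstranded, so genes that share exons are not told apart.

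Of 54347 genes, those passing filterByExpr (minimum count 10) were tested with the quasi-likelihood test of edgeR 4.0.16 (R 4.3.3, TMM factors, Benjamini-Hochberg adjustment) with group and replicate number as terms. The common biological coefficient of variation was 0.215. The replicate numbers are those of the labels, and the block was part of the plan of the comparison. Same-numbered libraries deviated together, with correlations of 0.39, 0.134 and 0.353 over the 3 numbers. No libraries agreed within sampling noise (lowest chi-square per degree of freedom 19.4). The fit was tested on simulated data. DESeq2 1.42.0 and limma 3.58.1 gave alternatives.

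The genes named are 12 per direction, taken by size of change from those called with separate groups and a mean log2 CPM not under 2, leaving out SMAD, matrix, milk, interferon and other genes known from earlier results of these data, and from each list up to 4 members per direction with the smallest p. Of these list members the text gives a part, chosen after their values were seen and mostly from those that passed in every alternative. The comparison and all 69 lists were chosen with earlier results of these data known. Positions are from GENCODE M21, in which 449 of 463 named identifiers were found. A few genes and a list are not reported here. Figures were drawn with matplotlib 3.10.9.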

Additional observations from a re-analysis of the deposited data

Results flagged for a closer look

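The edgeR test of the difference itself (adjusted p under 0.05, replicate block) passed for 280 of 15319 genes, 1.83%, and for 24 without the block. Of 159 named genes checked, the effect of TGFB2 differed by the test with the block between cells with and without BMP4 for 46. Values in brackets are the log2 effect on BMP4-treated cells minus that on untreated cells. Among genes that rose with TGFB2 alone these were Acsbg1 (-2.33), Adam12 (-2.79), Adcy7 (-1.03), Adssl1 (-1.32), Angptl2 (-0.74), Angptl4 (-1.88), Batf3 (-3.01), Chst11 (-2.24), Clcf1 (-1.23), Efna1 (-0.88), Ets1 (-1.10), Fads3 (-0.88), Fbln2 (-2.35), Fgf2 (-2.43), Fxyd5 (-1.86), Gabarapl1 (-0.53), Gpc1 (-1.52), Igsf11 (-2.82), Junb (-1.16), Mgat4b (-0.95), Nectin3 (-1.23), Pdgfb (-2.30), Piezo2 (-2.68), Plau (-1.28), Rasa4 (-2.50), Scara3 (-2.77), Sdc3 (-3.03), Slc16a12 (-3.28), Slc6a6 (-0.86), Sox11 (-1.57), Sqstm1 (-0.86), Tead2 (-0.94), Timp1 (-1.63) and Tspan7 (-0.92). Among genes that fell they were Car12 (2.01), Elovl6 (0.99), Gabrp (3.47), Gas7 (2.83), Glul (1.05), Kcnn4 (1.09), Mmp15 (1.89), Muc4 (3.99), Slc1a1 (2.52), St8sia6 (2.16), Tfcp2l1 (1.82) and Xbp1 (0.83). In each the effect was the smaller on BMP4-treated cells. The genes were named for their change with TGFB2 alone, which is 1 of the 2 effects compared, and a choice of that kind favours a smaller value in the other. Without replicate 2 the difference passed for 1 gene of all tested.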

How the results depend on the processing

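In TGFB2 against NT, 1457 to 2861 genes rose and 1311 to 2938 fell over the alternatives with all 6 libraries. The 2938 came from a fit of all 12 libraries with the replicate block. Without the replicate block 1468 rose and 1311 fell. Leaving out a pair of libraries gave 950 to 2354 rises and 926 to 2497 falls. For BMP4-TGFB2 against BMP4, the count was 932 without the replicate block, 1412 with 12 libraries and no block, and 1197 to 3004 with a pair left out. For TGFB2 against BMP4 it was 838, 1200 and 872 to 2764, and 1509 with limma on TPM. For the difference between the effects it was 24 without the block, 611 without the filter and 1 to 145 with a replicate number (4 libraries) left out. The cause of these shifts was not tested, beyond the fewer libraries of the fits with a replicate number left out and the more genes tested without the filter. Of the 456 genes that passed and that the rule for named genes gives, 318 passed in each of the 11 alternatives. The members of lists named in the text were taken mostly from these, so their own record (5 calls lost, 4 of Galnt2l and 1 of Sqstm1, and 0 reversed) is no measure of how stable the calls are.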
